A study of Mus musculus with 8 samples.

Results

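The carriers described here move amino acids, and neurotransmitters built from them, across membranes. They were chosen by name, as every probe that is not a control and whose gene symbol belongs to the solute carrier families Slc1, Slc3, Slc6, Slc7, Slc36, Slc38 or Slc43, with the brightest probe over the 8 arrays standing for a gene. The rule found 62 of the 36406 gene or transcript names on the array. Of these, 61 are carriers or their heavy chains, and *Slc7a6os* is a gene on the strand opposite *Slc7a6* that matched by name only. *Slc6a5* had no probe of that name and was not analysed here.

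The arrays measured polyadenylated RNA from E14Tg2A.4 cells, a line of mouse embryonic stem (ES) cells that can be kept dividing in culture or made to differentiate. One group of 4 samples was left untreated, and the other group of 4 was treated with retinoic acid (RA), a derivative of vitamin A that drives ES cells out of self-renewal, for 72 h. All samples come from this line with no genetic change named in the labels, and those of a condition are biological replicates by the series design. By the methods of the study, RA was given in a medium that lacked leukemia inhibitory factor, a cytokine used to keep ES cells self-renewing, and the medium of the untreated cells is not given in the sources used here. If it held that factor, the effects of RA and of withdrawing the factor cannot be told apart, and "after RA" stands for the whole treatment. The question the comparison addresses is which genes change their RNA level when ES cells start to differentiate. Since the RNA comes from whole cultures, fewer cells of a type and less RNA per cell cannot be told apart in any value given here.

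Amino acid carriers differ in what drives them. Most members of Slc1, Slc6 and Slc38 use the sodium gradient to concentrate their substrates in the cell, some Slc36 members use protons, and many Slc7 members exchange one amino acid for another as the light chain of a pair whose heavy chain, from Slc3, brings it to the cell surface. In neurons and glia the same families clear glutamate, GABA, glycine, serotonin and other transmitters from the synapse, while in dividing cells they supply glutamine, leucine, arginine and other amino acids for growth and for the sensing of nutrients at the lysosome.

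Levels are log2 of the background-corrected intensity relative to the 75th percentile of the array, so that 0 is the level of that percentile and each unit is a doubling. They depend on the probe, so the level of one gene is not set against that of another. A carrier was called higher or lower when its fold change was above 1.5 at an adjusted p under 0.05 in limma, with Benjamini-Hochberg adjustment over all 55681 probes. A probe is said to be dim on an array where the scanner software did not mark it as well above background. Per array, 33629 to 37175 spots were well above background in untreated cells and 35034 to 35780 after RA, and no spot was saturated. The number of arrays limits the precision of every value.

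Of the 61 carriers, 15 (24.6%) were called higher and 18 (29.5%) lower after RA, against 12.9% of all probes called higher and 21.6% called lower. Of the carriers, 14 were dim on all 8 arrays, and 6 of them were called although the size of their change cannot be given. None of these 6 calls held with normexp, another background correction. Normexp was run with an offset of 50 added to every spot, which shrinks differences between dim spots. The loss of these calls therefore cannot decide whether they are real. The other 47 carriers were above background on at least 1 array, and 12 of them were higher, 15 lower and 20 not called. The median log2 change was -0.25 over the 61 carriers and -0.28 over all probes. With quantile normalization between arrays both medians moved close to 0 (-0.013 and -0.0026), 17 carriers were higher and 15 lower, and the share of higher calls among all called probes went from 37.4% to 48.4%. The arrays lay on 2 slides, each with 2 arrays of each condition, and with the slide as a block all 33 calls were kept and *Slc6a20a* and *Slc7a2* were gained. Within each slide *Slc1a1* changed by -4.25 and -3.63, and *Slc7a9* by -3.42 and -3.93.

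**Figure D1:**
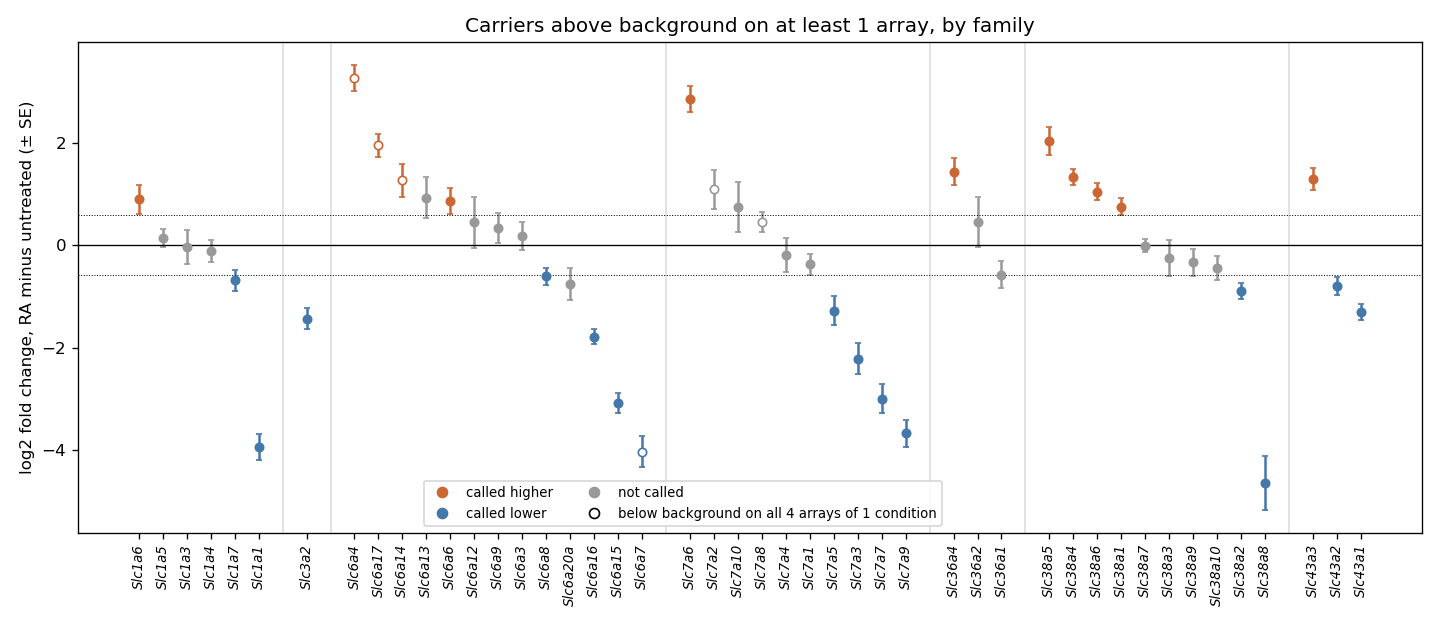
Log2 fold change with its standard error (RA minus untreated, 4 arrays a condition) for the 47 carriers above background on at least 1 array, except 1 that is not drawn, ordered by family and by size. Orange points are called higher and blue points lower, open points were dim on all 4 arrays of 1 condition, so that their fitted size is not a measured one, and dotted lines mark a 1.5-fold change. Each of Slc1, Slc6, Slc7, Slc38 and Slc43 holds carriers in both directions, and among carriers above background on all arrays *Slc1a1* is at -3.94 and *Slc7a9* at -3.68.

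The 2 light chains known to exchange cationic for neutral amino acids in pair with *Slc3a2* changed in opposite directions, *Slc7a6* upwards and *Slc7a7* downwards. Their probes, of 60 bases each, are shown because this contrast rests on them. The *Slc7a6* probe lies at chr8:108722470-108722529 on the plus strand of mm9 and the *Slc7a7* probe at chr14:54989166-54989225 on the minus strand, and the longest run of bases that both share is 6.
Slc7a6 probe: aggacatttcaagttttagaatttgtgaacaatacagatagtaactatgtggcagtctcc
Slc7a7 probe: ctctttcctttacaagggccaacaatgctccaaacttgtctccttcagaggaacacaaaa

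*Slc7a7* was measured at 5.19, 4.80, 4.93 and 5.16 in the 4 untreated samples and at 1.71, 2.89, 1.81 and 1.69 in the 4 RA samples. All untreated values lay above all RA values, with RA sample 2 higher than the other RA samples. The change was -3.00 ± 0.28 (SE), or 7.99-fold lower (limma, adjusted p = 5.88e-05). *Slc7a6* gave -4.00, -3.22, -2.90 and -3.06 without RA and -0.69, -0.47, -0.47 and -0.10 with it. No value was shared between the conditions, untreated sample 1 was the lowest, and the rise came to 2.86 ± 0.25, or 7.27-fold (adjusted p = 4.66e-05), and to 2.17 with normexp. The probe of *Slc7a6os*, the gene on the other strand of the same locus, had RA values of 1.23 to 1.42 against 1.72 to 2.17, a change of -0.57 that passed the p threshold (adjusted p = 0.0148) but not the fold threshold.

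*Slc3a2* encodes the heavy chain CD98, which these light chains need to reach the cell surface. It was measured at 6.08, 6.01, 5.70 and 6.27 in untreated cells and 4.21, 4.40, 4.95 and 4.77 after RA. The groups were apart on every array, and the level fell by 1.43 ± 0.21 on the log2 scale, a 2.7-fold difference (adjusted p = 0.000676). *Slc7a5*, the LAT1 light chain that takes up leucine and other large neutral amino acids, has a pair of probes on chromosome 8, which are shown because both gave a call.
Slc7a5 probe at chr8:124405136-124405195 (minus strand, mm9): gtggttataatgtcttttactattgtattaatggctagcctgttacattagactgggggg
Slc7a5 probe at chr8:124430996-124431055 (minus strand, mm9): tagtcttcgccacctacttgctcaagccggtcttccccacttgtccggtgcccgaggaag

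The first, brighter probe gave 2.75, 2.46, 1.90 and 2.36 in untreated cells and 0.59, 0.73, 1.38 and 1.65 after RA. The RA samples spread more than the untreated ones (SD 0.51 against 0.35), but the conditions did not overlap and the change was -1.28 ± 0.28 (adjusted p = 0.00676). The second probe fell by 0.90 ± 0.18 (adjusted p = 0.00365).

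The remaining partners of *Slc3a2* did not pass the test. *Slc7a8*, the LAT2 light chain, was dim on all untreated arrays and above background on 3 RA arrays, at -5.57, -6.04, -5.41 and -6.08 in untreated and -5.14, -5.54, -5.20 and -5.40 in RA samples. Untreated sample 3 lay above RA sample 2, and the difference was not called (adjusted p = 0.106). It was called with quantile normalization (adjusted p = 0.00648), while normexp turned its sign (-0.068). *Slc7a10*, which carries small neutral amino acids such as serine, gave -5.53, -4.93, -2.96 and -5.08 without RA and -4.00, -3.91, -3.88 and -3.74 with it. Untreated sample 3 stood above all RA samples while the other untreated samples stood below them, and the change was 0.74 ± 0.49 (adjusted p = 0.233), or 1.30 without that sample (adjusted p = 0.00105). *Slc7a11*, the cystine and glutamate exchanger, was dim on all 8 arrays, at -6.52 to -5.15 in untreated and -7.38 to -6.26 in RA samples, and was not called (adjusted p = 0.0616).

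The other heavy chain, *Slc3a1*, pairs with *Slc7a9* in the uptake of cystine and dibasic amino acids and with *Slc7a13*. *Slc3a1* and *Slc7a13* were dim on all 8 arrays, at -7.70 to -7.17 and -7.94 to -7.44 in untreated cells and -6.71 to -5.43 and -8.02 to -7.80 after RA. *Slc3a1* was called higher (adjusted p = 0.00274) below the level at which a size can be given, and *Slc7a13* was not called. *Slc7a9* was above background on every array, at -1.29, -0.30, -1.40 and -0.95 in untreated and -4.56, -4.34, -4.78 and -4.98 in treated cells. The groups lay far apart, with a fall of 3.68 ± 0.26 or 12.8-fold (adjusted p = 1.56e-05). The change became -2.34 when the background was instead corrected with normexp, whose offset raises the values of dim spots.

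**Figure D2:**
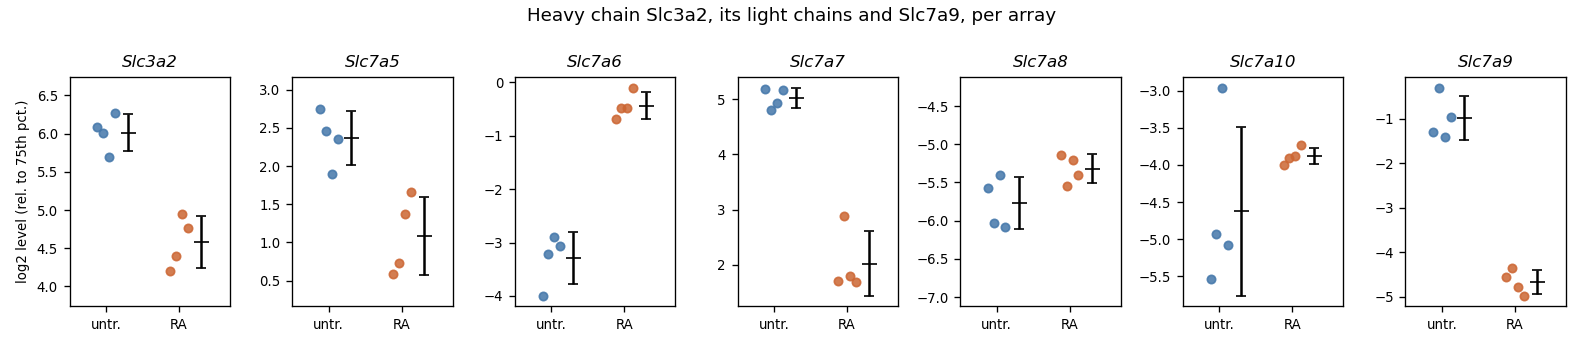
Log2 level relative to the 75th percentile on each array for the heavy chain *Slc3a2*, its light chains *Slc7a5*, *Slc7a6*, *Slc7a7*, *Slc7a8* and *Slc7a10*, and *Slc7a9*; points are the 4 untreated (blue) and 4 RA (orange) arrays, black bars are mean ± SD, and each panel has its own axis range. Only *Slc7a6* among the called genes is higher after RA, and the untreated array at -2.96 in the *Slc7a10* panel is sample 3.

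Of the cationic amino acid carriers, which take up arginine, lysine and ornithine without a heavy chain, *Slc7a3* fell and *Slc7a1* did not pass the test. *Slc7a3* was at 4.89, 4.72, 4.03 and 4.79 in untreated and 1.60, 2.60, 2.57 and 2.78 in RA samples. RA sample 1 was the lowest, the conditions did not overlap, and the change was -2.22 ± 0.30, or 4.65-fold lower (adjusted p = 0.000437). *Slc7a1*, the most widely expressed of these carriers in mouse tissues, gave 4.61, 4.34, 4.20 and 4.24 in untreated and 3.51, 4.06, 3.90 and 4.41 in RA samples, with RA sample 4 inside the untreated range and a change of -0.37 ± 0.21 (adjusted p = 0.193). *Slc7a2* was dim on all untreated arrays and above background on 2 RA arrays, at -7.45, -6.54, -6.94 and -7.46 in untreated and -6.91, -5.16, -5.65 and -6.30 in RA samples. RA sample 1 lay within the untreated range, and no fold is given because the RA mean was not above the lowest signal counted as well above background. The difference was not called (adjusted p = 0.0513), and it was with the replicate number as a block (adjusted p = 0.0078). With normexp its sign turned (-0.011). *Slc7a4*, a relative with no settled transport function, changed by -0.19 (adjusted p = 0.651). *Slc7a12*, *Slc7a14* and *Slc7a15* were dim on all 8 arrays, with *Slc7a14* called lower at that level.

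In Slc1, which holds the glutamate carriers and a pair of exchangers for neutral amino acids, 1 gene changed by a large amount. *Slc1a1*, the glutamate and cysteine carrier of neurons and kidney, was at -1.23, -0.86, -1.32 and -1.19 in untreated cells and -5.51, -4.83, -4.49 and -5.55 after RA. Every RA value was below every untreated value by more than 3 log2 units, and the fall came to 3.94 ± 0.26 or 15.4-fold (adjusted p = 1.1e-05), or -2.39 with normexp. The astrocyte glutamate carrier *Slc1a3* was at 0.28, 0.25, -0.011 and 0.24 in untreated and -0.13, -0.69, 0.46 and 0.99 in RA samples, so that the RA samples fell on both sides of the untreated ones. Its change was -0.031 ± 0.33 (adjusted p = 0.943), and its sign turned when RA sample 1 or RA sample 2 was left out (0.064 and 0.25). *Slc1a2*, the other main glutamate carrier of astrocytes, was dim on all 8 arrays and was called higher there with no size, while its other probes, also dim, gave -0.25 and -0.26 and were not called. That call was lost with the mean of all its probes and with normexp.

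The exchangers of neutral amino acids showed smaller differences. *Slc1a5*, the ASCT2 exchanger through which many dividing cells take up glutamine, gave 3.45, 3.56, 3.08 and 3.70 in untreated and 3.37, 3.50, 3.77 and 3.68 in RA samples. The ranges overlapped, with a change of 0.13 ± 0.18 (adjusted p = 0.551). *Slc1a4*, the ASCT1 exchanger for serine and alanine, gave 1.69, 1.84, 1.78 and 2.34 in untreated and 1.60, 1.75, 1.61 and 2.24 in RA samples, and sample 4 was the highest of both conditions. Its change was -0.11 ± 0.21 (adjusted p = 0.676). *Slc1a6*, a glutamate carrier of cerebellar neurons, was higher by 0.90 ± 0.28 (adjusted p = 0.035), at -1.36, -1.59, -0.47 and -1.19 in untreated against -0.55, -0.63, 0.037 and 0.12 in RA samples. Untreated sample 3 lay above 2 RA samples, and the call was lost without untreated sample 1, 2 or 4 (0.83, 0.75 and 0.89) or without RA sample 3 or 4 (0.80 and 0.77). *Slc1a7*, the glutamate carrier of the retina, was lower by 1.61-fold (adjusted p = 0.0241), at -4.15, -4.38, -3.98 and -3.77 in untreated against -4.70, -4.51, -4.66 and -5.18 in RA samples. This call did not hold with the replicate number as a block (adjusted p = 0.0717), with quantile normalization (-0.38) or normexp (-0.37), or without untreated sample 4 (-0.59), RA sample 1 (-0.71) or RA sample 4 (-0.55).

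Slc6 holds the carriers of monoamines, GABA, glycine and proline, and of the osmolytes and metabolites taurine, betaine and creatine. Of its 19 members measured, 5 were dim on all 8 arrays (*Slc6a2*, *Slc6a11*, *Slc6a18*, *Slc6a19* and *Slc6a20b*), the last 3 of them related to carriers of kidney and gut. *Slc6a4*, the serotonin carrier, was dim on all untreated arrays and above background on all RA arrays. Its values were -7.23, -7.65, -7.69 and -7.23 without RA and -4.04, -4.53, -4.60 and -3.55 with it, with no overlap between the conditions. Against the lowest signal well above background on the untreated arrays, its RA level was at least 2.39-fold higher with the reported background correction (limma fit, adjusted p = 2.5e-05). Measured means were -7.45 ± 0.25 and -4.18 ± 0.49 (SD, n = 4). That bound is 1.26 on the log2 scale, and normexp gave a smaller difference of 0.59, still past the threshold. *Slc6a2*, the noradrenaline carrier, was called higher while dim on every array. *Slc6a3*, the dopamine carrier, gave -6.00, -5.34, -4.98 and -5.91 in untreated and -5.14, -5.32, -5.20 and -5.86 in RA samples with arrays of both conditions below background, and a change of 0.18 ± 0.27 (adjusted p = 0.606).

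The proline carrier *Slc6a7* went the other way, from above background on all untreated arrays to dim on all RA arrays. It was at -2.15, -2.11, -3.36 and -3.09 in untreated and -6.59, -6.45, -6.92 and -6.88 in treated cells, with the untreated samples in pairs about 1 log2 unit apart. Against the lowest signal well above background on the RA arrays, its RA level was at least 8.71-fold lower with the reported background correction (limma fit, adjusted p = 2.13e-05). Measured means were -2.68 ± 0.64 and -6.71 ± 0.23 (SD, n = 4). That bound is 3.12 on the log2 scale, and normexp gave a smaller difference of -1.56. *Slc6a15*, a neuronal carrier of branched-chain amino acids and proline, gave -0.72, -0.89, -0.59 and -0.27 in untreated against -3.82, -3.39, -3.60 and -4.01 in RA samples. The samples of each condition were close together, and the fall was 3.09 ± 0.19 or 8.49-fold (adjusted p = 9.19e-06), and became -2.31 with normexp. *Slc6a16*, an orphan member with no known substrate, gave -1.65, -1.39, -1.59 and -1.61 in untreated and -3.39, -3.51, -3.12 and -3.39 in RA samples, a fall of 1.79 ± 0.14 (adjusted p = 2.83e-05) with no overlap. *Slc6a20a*, a carrier of proline and other imino acids, changed by -0.75 ± 0.31 and was not called (adjusted p = 0.0853), but was with the replicate number as a block (adjusted p = 0.0244).

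Among the carriers of GABA, *Slc6a13*, *Slc6a12* and *Slc6a11* were not called. *Slc6a13*, a GABA carrier of the meninges, liver and kidney, was at -3.49, -2.52, -1.82 and -3.39 in untreated and -2.13, -2.36, -1.24 and -1.77 in RA samples. Untreated sample 3 overlapped the RA samples, the change was 0.93 ± 0.40 (adjusted p = 0.102), and it was called with the replicate number as a block (adjusted p = 0.045) or without untreated sample 3 (1.26). *Slc6a12*, the carrier of betaine and GABA, ranged from -5.27 to -3.46 in untreated and -5.48 to -3.65 in RA samples, with a change of 0.44 ± 0.51 (adjusted p = 0.486). *Slc6a11*, another GABA carrier, was dim throughout, at -7.56 to -7.15 in untreated and -7.82 to -7.52 in RA samples (adjusted p = 0.0551).

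*Slc6a9*, the glycine carrier GlyT1, gave 2.43, 2.42, 2.00 and 2.26 in untreated cells and 1.83, 2.46, 2.84 and 3.29 after RA. The RA samples spread on both sides of the untreated ones, with a change of 0.33 ± 0.29 (adjusted p = 0.375), and a second probe that shares 51 bases with the first gave 0.32. The taurine carrier *Slc6a6* was higher after RA, at 2.49, 2.28, 2.19 and 2.63 in untreated against 3.68, 3.70, 2.85 and 2.80 in RA samples. RA samples 1 and 2 stood well above RA samples 3 and 4, and the rise of 0.86 ± 0.25 (adjusted p = 0.0249) was no longer called without untreated sample 2 or 3 (0.82 and 0.79) or RA sample 1 or 2 (0.72 and 0.71). The creatine carrier *Slc6a8* was lower, at 4.02, 4.16, 3.63 and 3.81 in untreated against 3.38, 3.49, 3.08 and 3.25 in RA samples, by 1.53-fold, just past the fold threshold (adjusted p = 0.0196). That call was lost with quantile normalization (-0.46) and without untreated sample 1 or 2 (-0.57 and -0.52) or RA sample 3 or 4 (-0.54 and -0.59).

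*Slc6a17*, a carrier of neutral amino acids on synaptic vesicles, and *Slc6a14*, a carrier of neutral and cationic amino acids, were dim on all untreated arrays and above background on 2 and 1 RA arrays. *Slc6a17* gave -7.44, -7.84, -7.91 and -7.42 without RA and -5.15, -5.97, -6.05 and -5.62 with it, and *Slc6a14* ranged from -8.01 to -7.08 in untreated and from -6.96 to -5.68 in RA samples. Both were called higher (adjusted p = 0.000221 and 0.0128) with no overlap, but the RA means were not above the lowest signal counted as well above background, so no fold is given. With normexp neither was called (0.18 for *Slc6a17* and -0.039 for *Slc6a14*).

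**Figure D3:**
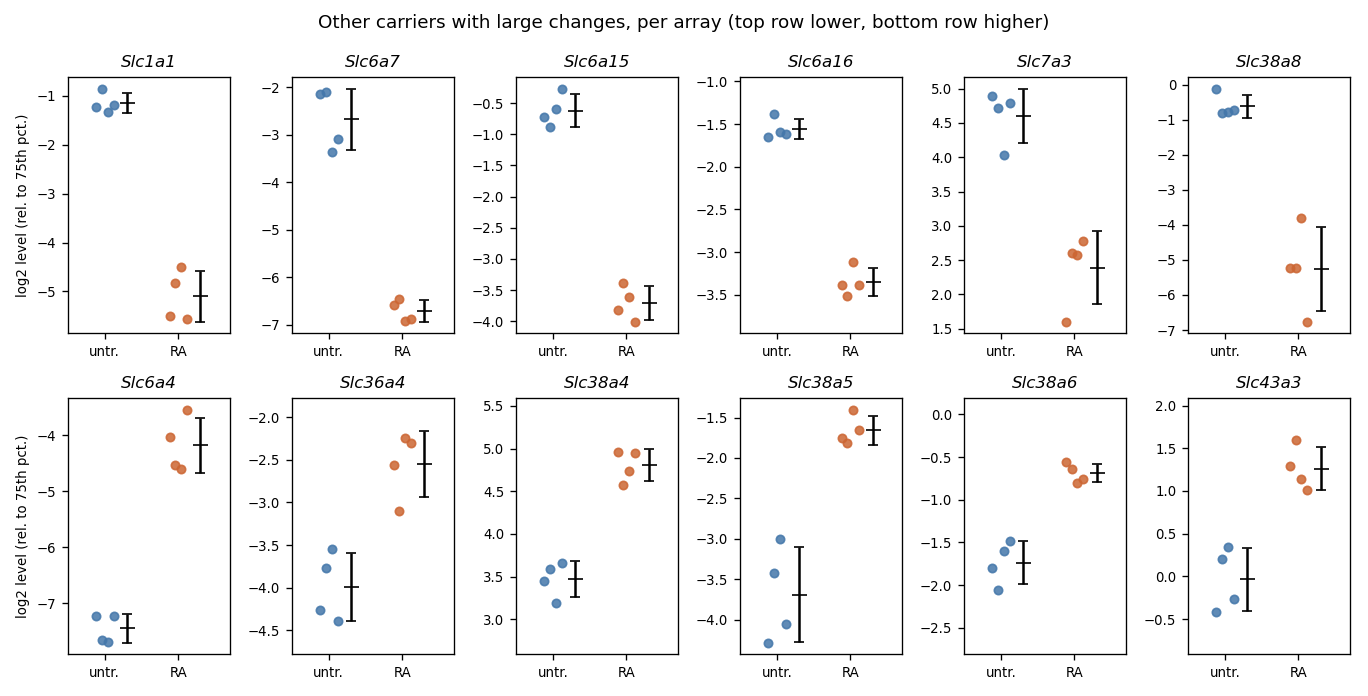
Log2 level relative to the 75th percentile on each array for 6 carriers lower after RA (top row) and 6 higher (bottom row) outside the heavy chain pairs; points are the 4 untreated (blue) and 4 RA (orange) arrays, black bars are mean ± SD, and each panel has its own axis range. The conditions do not overlap in any panel, and the RA arrays of *Slc38a8* spread from -6.76 to -3.80.

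Slc38 members carry glutamine, alanine and other small neutral amino acids with sodium, some of them with protons in exchange. *Slc38a1* and *Slc38a2*, both of which take up glutamine at the surface of many cells, changed in opposite directions. *Slc38a1* was at 4.72, 4.55, 4.40 and 5.05 in untreated and 5.47, 5.48, 5.35 and 5.43 in RA samples, with the RA samples close together (SD 0.059). The rise was 0.75 ± 0.17 (adjusted p = 0.00657), while a pair of dimmer probes of the gene gave 0.31 and 0.52, neither called, and the mean of the 3 probes was under the fold threshold (0.53). *Slc38a2*, a carrier whose RNA is known to rise when amino acids are scarce, was at 6.05, 6.08, 6.22 and 6.43 in untreated and 5.27, 5.55, 5.15 and 5.25 in RA samples. It fell by 0.89 ± 0.15 or 1.85-fold with no overlap (adjusted p = 0.00186).

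*Slc38a4*, a carrier abundant in liver and placenta, gave 3.45, 3.58, 3.19 and 3.66 in untreated cells and 4.96, 4.57, 4.73 and 4.95 after RA. The conditions were apart, with a rise of 1.33 ± 0.16 (adjusted p = 0.000272). *Slc38a5*, which exchanges glutamine, histidine and other amino acids against protons, was at -4.28, -3.42, -3.00 and -4.06 in untreated and -1.75, -1.82, -1.40 and -1.65 in RA samples. Untreated samples differed among themselves more than RA samples (SD 0.59 against 0.18), and the rise of 2.03 ± 0.28 or 4.1-fold (adjusted p = 0.000509) became 1.27 with normexp. *Slc38a6* rose by 1.05 ± 0.16 (adjusted p = 0.00105), with values of -2.06 to -1.48 in untreated and -0.80 to -0.56 in RA samples.

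*Slc38a8*, a glutamine carrier of the eye and brain, was lower after RA by an amount that rests in part on signals near background. It gave -0.12, -0.82, -0.79 and -0.72 in untreated cells and -5.24, -5.23, -3.80 and -6.76 after RA, where 2 of 4 arrays were dim. The RA values ran over almost 3 log2 units but stayed below all untreated values, with a change of -4.65 ± 0.53 (adjusted p = 0.000182), or -2.78 with normexp. The liver and brain carrier *Slc38a3* was at -3.47, -2.74, -2.18 and -2.80 in untreated and -3.41, -3.67, -2.36 and -2.75 in RA samples, with overlap and a change of -0.25 ± 0.35 (adjusted p = 0.573). *Slc38a7*, which exports glutamine from the lysosome, differed by -0.015 ± 0.13 (adjusted p = 0.93), and its sign turned with quantile normalization. *Slc38a10* changed by -0.45 (adjusted p = 0.17), and *Slc38a11* was dim on all 8 arrays and called lower there, while a second dim probe gave 0.35 (adjusted p = 0.498). Quantile normalization, normexp and the mean of its probes each removed the *Slc38a11* call.

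*Slc38a9*, the lysosomal protein that senses arginine for mTORC1, was not called by any of its 3 probes, of which 1 gave a positive and the others a negative change. The positive one and the more negative one are shown.
Slc38a9 probe at chr13:113524569-113524628 (plus strand, mm9): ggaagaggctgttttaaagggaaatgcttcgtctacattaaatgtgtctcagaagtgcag
Slc38a9 probe at chr13:113528693-113528752 (plus strand, mm9): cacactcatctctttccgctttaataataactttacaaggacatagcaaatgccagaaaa

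The first gave -3.64, -2.75, -3.28 and -3.34 in untreated and -2.67, -2.52, -2.87 and -2.61 in RA samples, a change of 0.58 ± 0.20 that passed the p threshold (adjusted p = 0.0499) but missed the fold threshold at 1.495-fold. The second gave -1.35, -0.65, -2.31 and -1.76 in untreated and -2.44, -1.88, -2.38 and -2.09 in RA samples, a change of -0.68 ± 0.33. In both the untreated samples were spread more than the RA samples and the ranges overlapped. The brightest probe, which stands for the gene, changed by -0.33 ± 0.27 (adjusted p = 0.323).

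Of the Slc36 carriers, *Slc36a4* rose. It was at -4.26, -3.77, -3.54 and -4.39 in untreated and -2.56, -3.10, -2.25 and -2.31 in RA samples, apart on every array, with a change of 1.44 ± 0.26 or 2.71-fold (adjusted p = 0.00227) that became 0.76 with normexp. *Slc36a1*, which exports amino acids from the lysosome, was at -2.01, -2.70, -1.36 and -2.24 in untreated and -2.67, -2.71, -2.58 and -2.66 in RA samples. Its untreated samples enclosed most of the narrow RA range, the change of -0.58 ± 0.26 was not called (adjusted p = 0.117), and it was called without untreated sample 2 (-0.78). A second probe of *Slc36a1*, above background on all 8 arrays, changed by -0.072 (adjusted p = 0.851). *Slc36a2* was above background on some arrays of both conditions and changed by 0.45 ± 0.49 (adjusted p = 0.466). *Slc36a3* was dim on all 8 arrays and called lower, while its second probe gave 0.050 (adjusted p = 0.846) and normexp gave no call.

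*Slc43a1* and *Slc43a2* carry large neutral amino acids by facilitated diffusion, and both fell. *Slc43a1* was at 1.55, 1.56, 1.22 and 1.77 in untreated and -0.0071, 0.29, 0.28 and 0.30 in RA samples, lower in all of them, by 1.31 ± 0.16 on the log2 scale (adjusted p = 0.000286). *Slc43a2* was at -0.13, -0.014, -0.24 and -0.12 in untreated and -0.55, -0.91, -1.25 and -0.99 in RA samples, and fell by 0.80 ± 0.17 with no overlap (adjusted p = 0.00565). *Slc43a3*, which carries purine bases rather than amino acids, gave -0.42, 0.20, 0.34 and -0.27 in untreated and 1.29, 1.59, 1.14 and 1.01 in RA samples. Its RA values lay above all untreated values, a rise of 1.29 ± 0.22 (adjusted p = 0.00158).

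**Figure D4:**
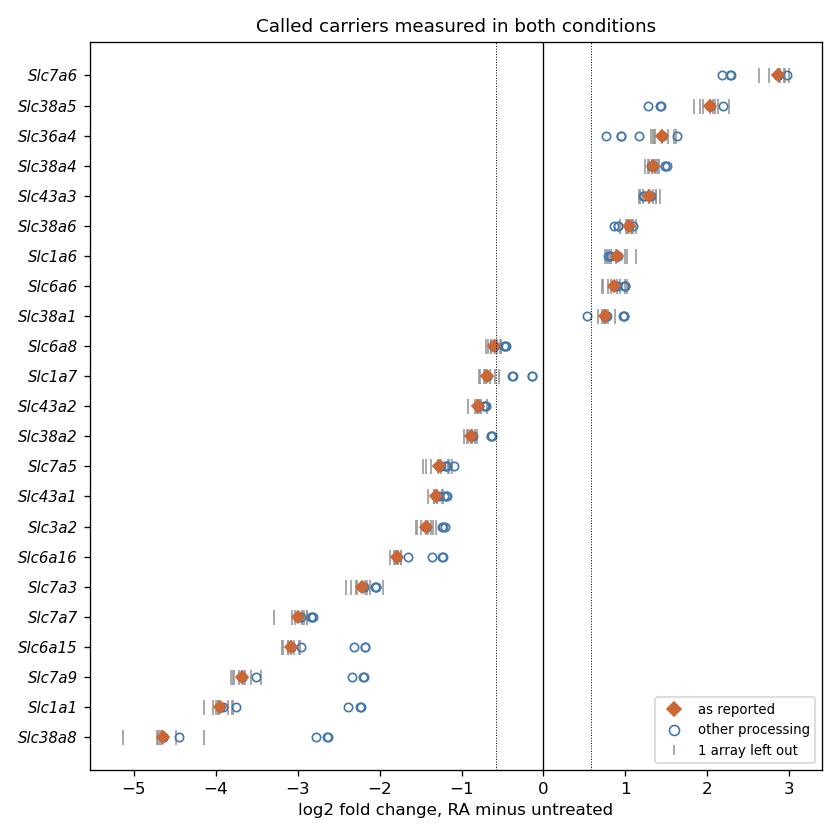
Log2 fold change (RA minus untreated) of the 23 called carriers that were above background in both conditions, as reported (diamonds), under other processing (open circles) and with 1 array left out (ticks); dotted lines mark a 1.5-fold change. *Slc1a1*, *Slc7a9* and *Slc38a8* keep their direction and shrink to between -2.78 and -2.19 under normexp and the deposited log2 values, and *Slc1a7*, *Slc6a8* and *Slc38a1* come inside the dotted lines under at least 1 setting.

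Several of these carriers are known targets of the amino acid response, for example *Slc3a2*, *Slc7a5*, *Slc7a11* and *Slc38a2*. In this response the transcription factor Atf4 raises genes for the uptake and synthesis of amino acids when they run short. Targets among the carriers were not listed in full, so these examples do not show how such carriers changed as a group. *Slc7a11* was not called, and neither were *Slc1a4*, *Slc1a5*, *Slc6a9* and *Slc7a1*, which take up amino acids as well. Of 23 listed genes of this response that are not carriers, 3 (13.0%) were higher and 14 (60.9%) lower after RA, against 12.9% and 21.6% of all probes, with a median change of -0.86 against -0.28. *Atf4* itself was at 8.19, 7.81, 7.63 and 7.84 in untreated and 6.75, 7.02, 7.14 and 7.12 in RA samples, lower in all of them, by 0.86 ± 0.17 (adjusted p = 0.00365). The largest falls were in *Nupr1*, a small stress-induced chromatin protein (-3.20 ± 0.29, adjusted p = 5.16e-05), *Cth*, which makes cysteine (-2.56 ± 0.18, adjusted p = 1.38e-05), and *Ddit3*, the stress factor CHOP (-2.50 ± 0.20, adjusted p = 2.44e-05). *Atf3*, a stress-induced transcription factor, *Vldlr*, a lipoprotein receptor, and *Phgdh*, the first enzyme of serine synthesis, were higher, by 3.11, 1.58 and 0.61. The summed level of the list was 9.34 to 9.66 in untreated samples and 8.38 to 8.83 after RA.

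Of 18 other carriers of amino acids and transmitters, most of them in vesicles, mitochondria or lysosomes, 0 were higher and 6 (33.3%) lower in limma (2 and 8 at an unadjusted p under 0.05), against 12.9% and 21.6% of all probes, with a median of -0.45 against -0.28. With normexp and quantile normalization, or with the deposited log2 values, 1 was higher and 3 lower. All probes called lower then numbered 6603 and 6583 in place of 12044. *Slc32a1*, which loads GABA and glycine into vesicles, was at 0.93, 0.19, 1.13 and 0.53 in untreated and -2.47, -2.50, -2.10 and -1.81 in RA samples, a fall of 2.91 ± 0.25 with no overlap (adjusted p = 3.83e-05). *Slc25a12*, the mitochondrial carrier of aspartate and glutamate, fell by 1.21, and the vesicular glutamate carrier *Slc17a8* by 1.08. Of 27 genes that sense amino acids at the lysosome, 4 (14.8%) were higher and 4 (14.8%) lower, shares near or below the 12.9% and 21.6% of all probes, with a median of -0.12 against -0.28. The higher genes were *Sesn3* (1.16), *Nprl3* (0.87), *Sesn1* (0.75) and *Mios* (0.67), and the largest falls were in *Tfeb* (-1.62), *Wdr24* (-1.17) and *Rragb* (-1.13), followed by *Wdr59* (-0.59).

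Promoter sequence was looked at because the choice of members did not use it. RefSeq promoters of 300 bases on GRCm38.p6 were at hand for 43 of the 61 carriers, 63 promoters in all, and *Slc7a5* and *Slc7a3* were not among them. The letters TGATGNAA, the core of a site for Atf4, were searched on both strands. They stood in 4 of the 63 carrier promoters, from 3 of the 43 carriers, and in 1304 (3.97%) of all 32851 promoters. The carriers were *Slc7a7*, *Slc7a11* and *Slc1a4*, of which *Slc7a7* was called. Direct repeats of AGGTCA, the form bound by retinoic acid receptors, with 1, 2 or 5 bases between were found in 0 carrier promoters and in 0.0578% of all. A single AGGTCA stood in 10 of the 63 carrier promoters, from 9 of the 43 carriers, and in 16.3% of all promoters. Of the 5 *Slc7a7* promoters 3 held no TGATGNAA, and a second held 1 of the sites of the promoter shown here. The promoters of *Slc3a2* and *Slc38a2*, which fell, held 0, but sequence beyond these 300 bases was not searched in any gene. A match is a description of these letters, and binding was not measured. A promoter of the falling *Slc7a7*, at chr14:54417895-54418194 on the minus strand, and of the rising *Slc7a6*, at chr8:106168604-106168903 on the plus strand, are shown, with TGATGNAA in capitals.
Slc7a7 promoter: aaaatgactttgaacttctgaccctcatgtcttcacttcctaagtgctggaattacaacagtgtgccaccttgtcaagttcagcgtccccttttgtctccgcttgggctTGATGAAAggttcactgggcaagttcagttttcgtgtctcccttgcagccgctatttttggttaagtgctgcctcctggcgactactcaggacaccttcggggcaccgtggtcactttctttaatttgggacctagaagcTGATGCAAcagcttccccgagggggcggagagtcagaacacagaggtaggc
Slc7a6 promoter: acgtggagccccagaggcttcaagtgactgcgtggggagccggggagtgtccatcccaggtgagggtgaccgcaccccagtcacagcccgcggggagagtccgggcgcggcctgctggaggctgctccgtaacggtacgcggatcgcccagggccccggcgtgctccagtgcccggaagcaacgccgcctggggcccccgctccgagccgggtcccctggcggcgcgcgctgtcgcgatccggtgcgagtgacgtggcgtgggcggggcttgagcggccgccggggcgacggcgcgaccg

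Markers of cell types were read on the same arrays. All 8 pluripotency markers were lower after RA (median -5.04), with a summed level of 8.15 to 8.69 in untreated samples and 4.14 to 5.30 in RA samples. All 8 primitive endoderm markers were higher (median 3.16), from 6.66 to 7.21 in untreated and 8.12 to 8.33 in RA samples. Of 6 fibroblast or mesenchyme markers 5 were higher (median 4.01), from 0.50 to 1.25 in untreated samples and 6.46 to 7.84 after RA. Of 6 neural progenitor markers 1 was higher, *Nes* (mean level 1.04 in untreated and 3.14 in RA samples), with a median change of 0.096 over the list and a summed level, mostly that of *Nes*, of 1.36 to 1.98 in untreated and 3.17 to 3.43 in RA samples. Of 7 neuron markers *Syt1* was higher and *Tubb3*, *Gad1* and *Stmn2* lower, with *Slc17a6* dim on every array and a summed level of 3.84 to 4.69 in untreated and 1.58 to 2.64 in RA samples. Of 4 astrocyte markers 0 were called by limma (0 higher and 1 lower at an unadjusted p under 0.05). The part of these lists in the changes of the carriers was not tested.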

How the data were processed

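RNA was purified with an RNeasy kit, amplified from the poly(A) end, labelled with Cy3 and hybridised to 1-colour SurePrint G3 arrays, 1 array a sample. Scans were read with Agilent Feature Extraction (version 10.7.3.1), and the authors deposited its output, with the spot intensity after background correction and detrending within the array, no normalization between arrays, and flags for detection, saturation and outliers. Further log2 values of these spots were deposited by the authors, with a median of 6.89 on every array and an unstated normalization, which was used as an alternative only and correlated with the log2 scanner values at 0.963 to 0.975. Probe positions are on mm9. Whether a probe lies in an exon or a UTR was not analysed here.

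In R (version 4.3.3), log2 intensities were set relative to the 75th percentile of the non-control spots on the same array. Control spots (3671) and flagged outlier spots (124 to 145 an array) were left out, and averaging the spots that share a probe gave 55681 probes. RA and untreated arrays were compared in limma (version 3.58.1, lmFit and eBayes) over all 8 arrays, with no covariates and no filter on dim probes, and Benjamini-Hochberg adjustment over all probes. Calls needed an adjusted p under 0.05 and a fold change above 1.5, the thresholds of the study. For a carrier dim on all 4 arrays of 1 condition, the bound on its fold change used, per array, the higher of its own signal and the dimmest signal of any probe that was well above background. Such a bound holds for the reported background correction only. In simulated data with 200 of 55681 probes changed by 2 on the log2 scale, 138 were recovered, with 5 false calls. Far fewer probes changed there than were called in the data, and the noise was independent between probes. Those figures are therefore not error rates of the comparison reported here. Summed levels of lists are log2 of the sum of linear levels.

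Samples with the same replicate number deviated together from their group means (correlations of 0.186, 0.189, 0.104 and 0.151 over 27491 probes above background on all arrays, against at most 0.142 between other numbers), a pairing that comes from the data and not from the labels. The reported fit is not paired. The replicate number entered as a block in an alternative only, and the blocked value stands beside the carriers whose call it changes. Alternatives were quantile normalization, normexp with an offset of 50, both together, the deposited log2 values, a filter on dim probes, slide or replicate number as a block, flagged spots kept, a fold change above 2, the mean of all probes of a gene, and leaving out each array. One alternative, with dim carriers at their bound, was chosen after seeing the data. One carrier is counted but not reported here by itself. The members and lists were chosen with earlier results of these data known. Carriers described in full were the 10 largest rises and 10 largest falls among calls with no overlap between conditions and a fixed panel of heavy and light chains and of cationic amino acid, glutamate, neutral amino acid, GABA, glycine, taurine, creatine, proline and glutamine carriers. Of each further list, the 3 largest rises and falls among the calls were named, and further genes (*Atf4*, *Mios*, *Wdr59* and the markers) were named after their values had been seen.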

Additional observations from a re-analysis of the deposited data

Results flagged for a closer look

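In 4 of 77 groups of 4 arrays (carriers above background, each condition), 1 array stood far from the other 3 by Dixon's criterion, where chance alone gives about 3.85. *Slc7a7* was at 2.89 in RA sample 2 and between 1.69 and 1.81 in the other RA samples, and without that sample its change was -3.29 (limma, adjusted p = 9.95e-06). *Slc38a8* was at -0.12 in untreated sample 1 and between -0.82 and -0.72 in the others, and without it the change was -4.48 (adjusted p = 0.000969). *Slc43a1* was at -0.0071 in RA sample 1 and at 0.28 to 0.30 in the others, and changed by -1.23 without it (adjusted p = 0.00144). *Slc1a3* was at -0.011 in untreated sample 3 and at 0.24 to 0.28 in the others, and was not called with that sample or without it (-0.098, adjusted p = 0.84).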

How the results depend on the processing

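The counts of carriers called higher (15) and lower (18) stayed within 1.5 times under every alternative run, from 10 to 17 and from 13 to 19, and between 14 and 16 and between 16 and 19 when 1 array was left out. With dim carriers at their bound, 10 were higher and 15 lower. With the replicate block 17 carriers were higher and 18 lower, 32 of the 33 calls were kept, *Slc1a7* was lost, *Slc6a13*, *Slc6a20a* and *Slc7a2* were gained, and no other carrier's call changed. Normexp lost 9 calls, of which 6 were of carriers dim on all arrays, and gained none. Its offset of 50 shrinks differences most in dim carriers, so these losses are no independent check on them. Of 793 values for 47 carriers under the alternatives, 737 kept their direction and their side of the threshold, 30 lost their call, 13 gained one and 13 changed sign. The changes of sign were in *Slc1a3* (0.064 without RA sample 1 and 0.25 without RA sample 2, with a lowest value of -0.31 on leaving out 1 array), *Slc1a4* (0.030 without untreated sample 4, lowest -0.26), *Slc38a7* (0.020 with quantile normalization, 0.0062 with normexp and quantile normalization, 0.0050 with the deposited log2 values, 0.026 without untreated sample 4 and 0.0090 without RA sample 4, lowest -0.047) and, with normexp alone, *Slc36a2* (-0.079), *Slc6a3* (-0.17), *Slc6a14* (-0.039), *Slc7a2* (-0.011) and *Slc7a8* (-0.068). Of these only *Slc6a14* was called, and the cause was not tested.

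With normexp and quantile normalization, 6603 probes were lower, and 6583 with the deposited log2 values, in place of 12044. Leaving out 1 array gave 6549 to 7281 probes higher and 10601 to 12676 lower. Among the 18 other carriers, 1 was higher in place of 0 with either of those 2 settings and with the slide as a block, and 3 were lower in place of 6 with either of those settings and above 2-fold. Leaving out untreated sample 2 or RA sample 3 also gave 1 higher, so the range was 0 to 1 higher and 5 to 6 lower. Above 2-fold, 8 amino acid response genes were lower in place of 14, and 1 amino acid sensing gene was higher in place of 4. With 1 array left out, 2 to 4 amino acid response genes were higher and 13 to 15 lower, and 3 to 4 amino acid sensing genes were higher and 3 to 6 lower. Signal over background limited the 14 carriers dim on all arrays.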
